A study of Saccharomyces cerevisiae with 12 samples.

Results

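The genes of the general transcription factor TFIIH and of the nucleases that cut out damaged DNA were read on expression arrays of wildtype, *rad4Δ*, *rad23Δ* and *rad4Δrad23Δ* yeast. They were chosen by name in the annotation of the yeast S98 array, without use of their values. The 10 genes are the TFIIH subunits *RAD3* (YER171W), *SSL2* (YIL143C, also called *RAD25*), *SSL1* (YLR005W), *TFB1* (YDR311W), *TFB2* (YPL122C), *TFB4* (YPR056W) and *TFB3* (YDR460W) and the nuclease genes *RAD1* (YPL022W), *RAD10* (YML095C) and *RAD2* (YGR258C), with systematic names from RefSeq. Each had 1 probe set that named no other gene, so 10 of the 9275 probe sets tested, and 10 of the 5656 genes they name, were followed. None of the 10 passed an adjusted p of 0.05 in any comparison between strains with all arrays weighted equally. The lowest adjusted p was then 0.324 (limma), for *RAD10* in the double mutant against wildtype. Some passed when arrays were weighted unequally, in comparisons where 6.89% to 25.4% of all probe sets did.

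Haploid BY4742 and its *rad4Δ* and *rad23Δ* derivatives came from the Euroscarf collection, and for the double mutant a *HIS3* marker took the place of *RAD4* in *rad23Δ* cells. Each genotype was therefore a single strain. The cells were untreated and grew logarithmically in rich medium (YPD). Each strain was measured on 3 arrays from biological repeats, 12 arrays in all. No damaged cells were measured here, so every value is a basal transcript level.

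In nucleotide excision repair, Rad4-Rad23 binds the distorted DNA at a lesion and TFIIH then opens the helix around it. Rad2 and the Rad1-Rad10 pair cut the damaged strand on either side, and the gap is filled and sealed. TFIIH is also a general transcription factor of RNA polymerase II, in which Ssl2 opens promoter DNA and a kinase module phosphorylates the polymerase. Most TFIIH subunits are essential for growth, whereas *RAD1*, *RAD10* and *RAD2* are not. The comparisons asked whether cells that lack the damage recognition factors hold different levels of the transcripts for the factors that act after them.

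The deleted genes were read first. The signal of *RAD23* lay between 9.32 and 9.82 on a log2 scale in wildtype and *rad4Δ* and between 3.66 and 4.88 in both strains without *RAD23*. *RAD4* was between 2.70 and 2.99 in the double mutant and between 5.12 and 5.44 in *rad23Δ*. On the array labelled wildtype replicate 3 it was 3.42, below the 5.11 and 5.12 of the other wildtype arrays. On the array labelled *rad4Δ* replicate 2 it was 5.47, above the 3.49 and 3.01 of the other *rad4Δ* arrays. The labels of these 2 arrays are therefore in doubt, and a named difference of the 10 genes is also given without them where it then moved by over 1.5 times. The differences between the double mutant and *rad23Δ*, and between the strains without *RAD23* and those that have it, do not depend on which of these 2 arrays is wildtype and which is *rad4Δ*. *STE3*, a receptor gene of mating type alpha cells such as BY4742, was between 9.20 and 9.72, and *STE2*, its counterpart in the opposite mating type, was between 3.07 and 3.53. Of the other genes of that mating type that were listed, *MFA2* was higher, between 5.43 and 6.35, and *MFA1*, *STE6* and *BAR1* were between 3.05 and 5.09.

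Values are on the log2 scale of the robust multichip average (RMA), in which a difference of 1 is a 2-fold change. The 10 genes were not ranked by signal, because probes differ in brightness. Over all 12 arrays, the values of a single gene spanned between 0.24 (*TFB2*) and 0.61 (*TFB4*), with a median span of 0.44 over the 10 genes and 0.61 over all probe sets. The SD between arrays of the same strain ran from 0.0704 for *TFB2* to 0.177 for *RAD2* and had a median of 0.125, beside 0.171 over all probe sets. The means of the 4 strains lay 0.0633 (*TFB2*) to 0.317 (*TFB4*) apart, with a median of 0.185, beside 0.23 over all probe sets.

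**Figure D1:**
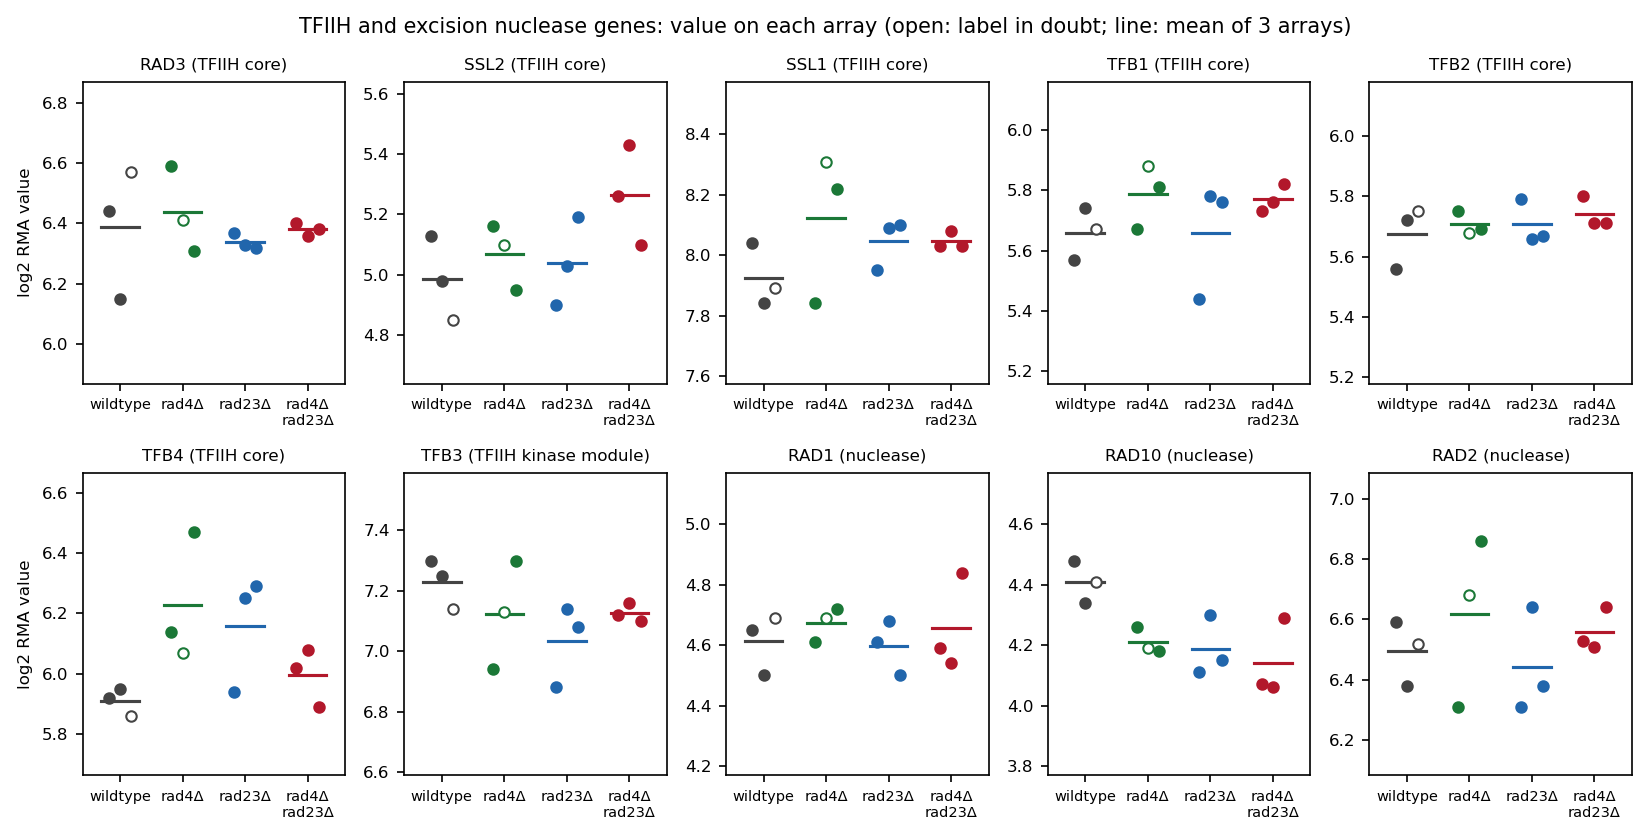
Log2 RMA value (y axis, a span of 1 in every panel) of each gene on each array, by strain (x axis); points are arrays, lines are means of 3 arrays and open points are wildtype replicate 3 and *rad4Δ* replicate 2, with doubtful labels. The *RAD10* values of the 9 mutant arrays, 4.06 to 4.30, lie below the wildtype arrays, 4.34 to 4.48, while for the other 9 genes wildtype and mutant arrays overlap.

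Among the nucleases, *RAD10* was the gene whose arrays separated. Its product is the non-catalytic partner of the endonuclease Rad1, with which it cuts on the upstream side of the lesion. *RAD10* was at 4.48, 4.34 and 4.41 on wildtype replicates 1, 2 and 3 and at 4.26, 4.19 and 4.18 on the *rad4Δ* arrays. On the *rad23Δ* arrays it was at 4.11, 4.30 and 4.15, and on the double mutant arrays at 4.07, 4.06 and 4.29. All 9 mutant arrays were thus below all 3 wildtype arrays. Such a separation downwards was seen for 55 of 9275 probe sets (0.593%), and *RAD10* was the 1 of the 10 genes that showed it. The 2 doubtful arrays lie at 4.41 and 4.19, inside the range of the groups they are labelled with. When they were left out *RAD10* still separated, and 3.28% of all probe sets then showed it. If their labels were exchanged, 4.19 would be a wildtype value and 4.41 a *rad4Δ* value, and *RAD10* would not separate.

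The means of *RAD10* were 4.41 ± 0.07 for wildtype (SD, n = 3), 4.21 ± 0.0436 for *rad4Δ*, 4.19 ± 0.1 for *rad23Δ* and 4.14 ± 0.13 for the double mutant. Against wildtype, the difference was -0.27 in the double mutant, a 0.829-fold level (standard error 0.0976, 95% interval -0.48 to -0.06, unadjusted p = 0.0171 and adjusted p = 0.324 from limma). In *rad23Δ* it was -0.22 (95% interval -0.44 to -0.01, adjusted p = 0.668, limma) and in *rad4Δ* -0.20 (-0.41 to 0.01, adjusted p = 0.906, limma). These 3 differences use the same wildtype arrays and are not independent. The 3 mutants did not separate from one another, as the double mutant differed by -0.05 from *rad23Δ* (95% interval -0.26 to 0.17) and by -0.07 from *rad4Δ* (-0.28 to 0.14), the latter from -0.145 to -0.03 when single arrays were left out. Leaving out the 2 arrays in doubt left the difference in the double mutant at -0.27 (adjusted p = 0.514, limma). It was -0.23 with the median of each array subtracted and -0.21 after further quantile normalization (unadjusted p = 0.0458 and 0.0845, limma). Its call depended on how the arrays were weighted: with weights estimated from all probe sets its adjusted p was 0.00251 and with weights estimated gene by gene 0.0267 (limma), settings under which 25.4% and 8.92% of all probe sets were called. Both kinds gave the most weight to wildtype replicate 1 (11.5 and 3.27), the array highest in *RAD10* (4.48). The 2 weightings are thus not separate support. With weights from all probe sets *RAD10* also passed in *rad23Δ* (adjusted p = 0.0224, limma, 25.4% of all called) and in *rad4Δ* (adjusted p = 0.0463, 6.89% of all called). The signal was low, as the 25th percentile of an array lay between 3.845 and 4.08. The probe set of *RAD23* read 3.66 to 4.88 in the strains without that gene. All values of *RAD10* and of *RAD1* lie within that range. The files give no background for a single probe set, and how far it bore on these differences was not tested.

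*RAD1*, which encodes the catalytic partner, also had a low signal and did not follow *RAD10*. Its values ran from 4.50 to 4.69 for wildtype, 4.61 to 4.72 for *rad4Δ*, 4.50 to 4.68 for *rad23Δ* and 4.54 to 4.84 for the double mutant, and all 4 strains overlapped. The strain means were within 0.0767 of one another. Against wildtype, *RAD1* differed by 0.04 on loss of both factors, with a 95% interval of -0.19 to 0.27, and by 0.08 without the 2 arrays in doubt. *RAD2*, which encodes the nuclease that cuts on the downstream side and varied most of the 10 between arrays of the same strain, ran from 6.38 to 6.59 for wildtype, 6.31 to 6.86 for *rad4Δ*, 6.31 to 6.64 for *rad23Δ* and 6.51 to 6.64 for the double mutant. Its difference in the double mutant was 0.06 (95% interval -0.24 to 0.37).

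The core of TFIIH is built around a pair of helicases. *RAD3* encodes the helicase related to human XPD, whose activity is needed for repair, and *SSL2* encodes the translocase related to human XPB, which opens DNA in both processes. *RAD3* differed between the double mutant and wildtype by -0.01 (95% interval -0.26 to 0.24) and, without the 2 arrays in doubt, by 0.085, with values from 6.15 to 6.57 in wildtype and from 6.36 to 6.40 in the double mutant. *SSL2* was at 5.13, 4.98 and 4.85 in wildtype replicates 1, 2 and 3 and at 5.16, 5.10 and 4.95 in *rad4Δ*. The *rad23Δ* arrays had 4.90, 5.03 and 5.19 and the double mutant arrays 5.26, 5.43 and 5.10. The double mutant had the highest mean, and its lowest array lay within the wildtype range. The difference from wildtype was 0.28 (standard error 0.121, unadjusted p = 0.041 and adjusted p = 0.422 from limma). Against *rad23Δ* it was 0.22 (95% interval -0.04 to 0.49, adjusted p = 0.593, limma) and against *rad4Δ* 0.19 (-0.07 to 0.46, adjusted p = 0.627, limma). Without double mutant replicate 2, the array highest in *SSL2*, these last were 0.14 and 0.11. The difference from wildtype was 0.21 without the 2 arrays in doubt (unadjusted p = 0.16, limma) and 0.13 and 0.16 with weights estimated from all probe sets and gene by gene.

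The other core subunits hold the helicases and regulate them. *SSL1* and *TFB4* encode interacting zinc-binding subunits, of which Ssl1 contacts Rad3. *TFB2* encodes the subunit that binds Ssl2, and *TFB1* a scaffold subunit that contacts other repair proteins. *TFB4* had the widest spread of strain means. It was at 5.92, 5.95 and 5.86 in wildtype replicates 1, 2 and 3 and at 6.14, 6.07 and 6.47 in *rad4Δ*. In *rad23Δ* it was at 5.94, 6.25 and 6.29 and in the double mutant at 6.02, 6.08 and 5.89. The *rad4Δ* arrays were all above the wildtype arrays, a separation upwards shown by 2.53% of all probe sets, while the other mutants overlapped with wildtype. If the labels of the 2 doubtful arrays were exchanged, 6.07 would be a wildtype value and 5.86 a *rad4Δ* value. *TFB4* would then not separate, and no difference was fitted with the labels exchanged. *TFB4* was 0.32 above wildtype in *rad4Δ* (standard error 0.127, unadjusted p = 0.0285 and adjusted p = 0.906 from limma), 0.25 in *rad23Δ* (95% interval -0.03 to 0.53, unadjusted p = 0.073, adjusted p = 0.711) and 0.09 in the double mutant (95% interval -0.19 to 0.36). Without the 2 arrays in doubt, the first of these was 0.37 (adjusted p = 0.54, limma), without *rad4Δ* replicate 3 it was 0.195 and with weights from all probe sets 0.19. Array weights brought the difference in *rad23Δ* past the threshold, to 0.33 with either kind (adjusted p = 0.00725 and 0.0358, limma), and 25.4% and 9.08% of all probe sets were called with them.

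*SSL1* was at 8.04, 7.84 and 7.89 in wildtype and at 7.84, 8.31 and 8.22 in *rad4Δ*, where the array in doubt was the highest. It ran from 7.95 to 8.10 in *rad23Δ* and from 8.03 to 8.08 in the double mutant, and every mutant overlapped with wildtype. Its difference from wildtype was 0.20 in *rad4Δ* (95% interval -0.06 to 0.46, adjusted p = 0.906, limma) and 0.12 in the double mutant (-0.14 to 0.39, adjusted p = 0.745, limma). The first was 0.09 without the 2 arrays in doubt, 0.11 without *rad4Δ* replicate 2 alone and 0.34 without *rad4Δ* replicate 1 (adjusted p = 0.309, limma). The second was 0.08 without wildtype replicate 2, and 0.01 and 0.04 with array weights from all probe sets and gene by gene. *TFB1* ran from 5.57 to 5.74 for wildtype, 5.67 to 5.88 for *rad4Δ*, 5.44 to 5.78 for *rad23Δ* and 5.73 to 5.82 for the double mutant. The double mutant was 0.11 above *rad23Δ* in *TFB1* (95% interval -0.13 to 0.35, adjusted p = 0.865, limma), and rested on *rad23Δ* replicate 1, without which it was 0. Without *rad23Δ* replicate 2 it was 0.17, and with either kind of array weights 0.02. *TFB2* was the steadiest gene, between 5.56 and 5.80 on all arrays, and its difference in the double mutant was 0.06 (95% interval -0.13 to 0.26), or 0.10 without the 2 arrays in doubt.

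*TFB3* encodes the subunit that ties the kinase module to the core. Its values were 7.30, 7.25 and 7.14 in wildtype and 6.94, 7.13 and 7.30 in *rad4Δ*. They were 6.88, 7.14 and 7.08 in *rad23Δ* and 7.12, 7.16 and 7.10 in the double mutant. Wildtype had the highest mean and each mutant reached into its range. The difference from wildtype was -0.20 in *rad23Δ* (95% interval -0.44 to 0.04, adjusted p = 0.743, limma), and -0.12 without *rad23Δ* replicate 1. With weights from all probe sets it passed there (adjusted p = 0.0321), and in the double mutant *TFB3* at -0.17, *TFB1* at 0.19 and *TFB2* at 0.17 did too (adjusted p = 0.0295, 0.0214 and 0.0221, limma), beside 25.4% of all probe sets called in both comparisons. *TFB1* also passed in *rad4Δ* under these weights, at 0.27 (adjusted p = 0.0345, limma, 6.89% of all called).

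**Figure D2:**
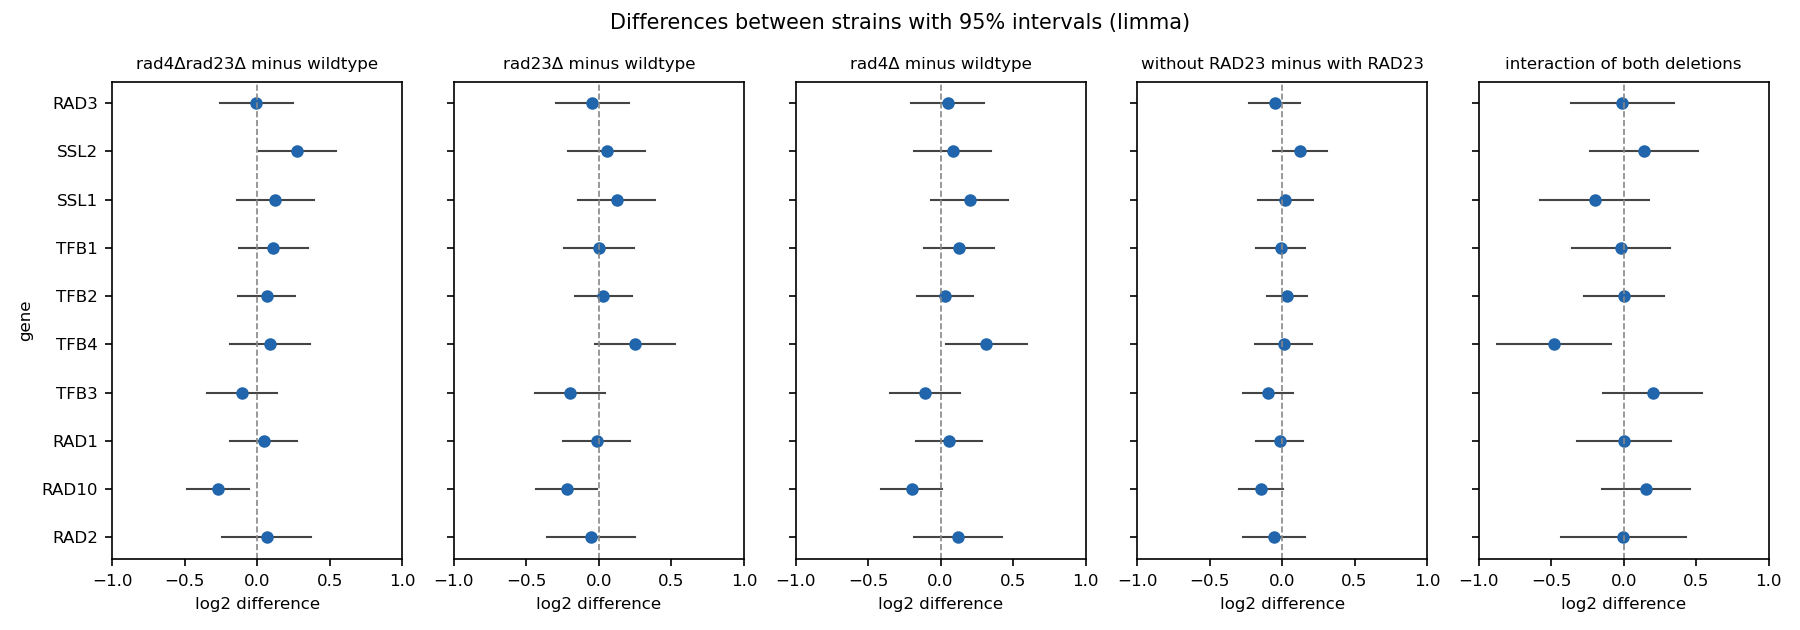
Log2 difference (x axis) of each gene (y axis) in 5 comparisons, with 95% intervals from limma; 0, the dashed line, is no difference. In the double mutant against wildtype the intervals reach from -0.48 (*RAD10*) to 0.54 (*SSL2*), and no gene passes an adjusted p of 0.05 in any panel.

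Taking the 10 genes as a group, the double mutant against wildtype gave 0 calls at an adjusted p under 0.05 (limma), where 60 of all probe sets (0.647%) were called. At an unadjusted p under 0.05 there were 2, *SSL2* and *RAD10*, in opposite directions, beside 11.1% of all probe sets. The 10 differences ran from -0.27 to 0.28, with 7 above and 3 below 0 and a median of 0.0633, beside a median of -0.02 over all probe sets. The 10 intervals reached from -0.48 to 0.54, so a change in signal of more than about 1.45-fold lay outside each of them. Whether signal follows transcript level at the low values of *RAD10* and *RAD1* was not tested. The smallest difference that was called anywhere on the array was 0.463 in this comparison, larger than that of any of the 10 genes.

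For *rad23Δ* against wildtype the count was again 0, with 26 calls (0.28%) over all probe sets. *RAD10* alone reached an unadjusted p under 0.05, beside 7.15% of all probe sets. With the median of each array subtracted or after further quantile normalization, its unadjusted p was 0.0689 and 0.0856 (limma). Differences ran from -0.22 to 0.25 with a median of -0.01, as over all probe sets, and the intervals reached from -0.44 to 0.53. For *rad4Δ* against wildtype limma called none of the 10 and no probe set at all (0%). The deleted *RAD4* itself was thus not called, at -0.56 (adjusted p = 0.906, limma). Nor was it called in the double mutant against wildtype, at -1.71 (adjusted p = 0.27, limma). *TFB4* had an unadjusted p under 0.05, beside 4.16% of all probe sets. The 10 differences had a median of 0.0717, beside 0.00 over all probe sets, and intervals that reached from -0.41 to 0.59. This comparison holds both arrays whose labels are in doubt. When they were left out, none of the 10 genes was called in any of the comparisons. Over all probe sets, 40 were then called in *rad4Δ* against wildtype, where 0 were called with all arrays (limma). The calls went from 26 to 61 in *rad23Δ* and from 60 to 73 in the double mutant, both against wildtype. Between the strains without *RAD23* and those that have it, the calls went from 80 to 65.

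The mutants were also set against each other. Against *rad23Δ*, the double mutant gave 0 calls (0.873% of all probe sets were called), with 0 genes at an unadjusted p under 0.05 (10.3% of all) and differences from -0.16 (*TFB4*, 95% interval -0.44 to 0.11, adjusted p = 0.787, limma) to 0.22 (*SSL2*). The *TFB4* difference was -0.27 without *rad23Δ* replicate 1 and -0.10 without *rad23Δ* replicate 3. Against *rad4Δ* it gave 0 calls (0.765% of all), with 0 at an unadjusted p under 0.05 (10.8% of all) and differences from -0.23 (*TFB4*, 95% interval -0.51 to 0.05, adjusted p = 0.568, limma) to 0.19 (*SSL2*). Here *TFB4* was at -0.11 without *rad4Δ* replicate 3.

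The comparison with the smallest standard errors set the 6 arrays without *RAD23* against the 6 with it. It called 0 of the 10 genes and 80 of all probe sets (0.863%, limma), and 0 of the 10 reached an unadjusted p under 0.05, beside 9.83% of all. *RAD10* differed by -0.15 (standard error 0.069, 95% interval -0.30 to 0.00, adjusted p = 0.522, limma). An exact permutation test of the 12 arrays, two-sided, gave p = 0.0563 for *RAD10* and 0.212 or more for the other 9, where the smallest value possible is 0.00216. The test shuffled arrays freely, also between strains with and without *RAD4*, and took repeats of single strains as replicates. *SSL2* differed by 0.12 (95% interval -0.06 to 0.31, adjusted p = 0.695, limma), and by 0.08 without double mutant replicate 2. *TFB3* differed by -0.10 (-0.27 to 0.07, adjusted p = 0.737, limma), by -0.05 without *rad4Δ* replicate 3 and by -0.06 without *rad23Δ* replicate 1. The 10 intervals reached from -0.30 to 0.31, so a change in signal of more than about 1.24-fold lay outside each of them.

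The interaction term asked if the effects of both deletions add up on the log2 scale. None of the 10 passed (8 of all probe sets, 0.0863%, were called), and *TFB4* alone had an unadjusted p under 0.05, beside 8.92% of all. In *TFB4*, loss of *RAD4* went with a difference of 0.32 in cells that have *RAD23* and of -0.16 in *rad23Δ* cells, an interaction of -0.48 (95% interval -0.87 to -0.09, adjusted p = 0.478, limma). Without the 2 arrays in doubt it was -0.53 (adjusted p = 0.323, limma), and it was not fitted with their labels exchanged. With weights from all probe sets it passed, at -0.45 (adjusted p = 0.0236, limma), where 11% of all probe sets were called. *TFB3* followed at 0.20 (95% interval -0.14 to 0.54, adjusted p = 0.761, limma), and at 0.11 without *rad4Δ* replicate 1 or 0.12 without *rad23Δ* replicate 1. *SSL1* was at -0.20 (-0.57 to 0.17, adjusted p = 0.786, limma), at -0.09 without the 2 arrays in doubt and at -0.34 without *rad4Δ* replicate 1. The other 7 intervals all held 0 and reached from -0.44 to 0.51.

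The rest of the pathway was read from lists of factors that work beside these 10, of which 47 genes other than *RAD4* and *RAD23* were measured by 55 probe sets. In every one of the 7 comparisons limma called 0 of the 55. *KIN28* and *CCL1*, the kinase and cyclin of TFIIH, and *TFB5*, its smallest subunit, were listed together with *TFB3*, and the median of these 4 in the double mutant was 0.0217. Of the other general transcription factors, 9 genes such as *SPT15*, which encodes the TATA-binding protein, differed from wildtype by -0.23 to 0.20 in the double mutant. For gap filling and ligation, 16 genes with 24 probe sets had a median of 0.01 there and ran from -0.75 to 0.30. Its 5 lowest values, -0.75 to -0.28, were all of *POL2*, a replicative polymerase gene whose other 4 probe sets ran from -0.20 to 0.10, and no other gene of the list was below -0.23. All 5 have identifiers that end in _s_at, and whether they also read other sequences was not tested. The *POL2* probe sets without this ending ran from -0.03 to 0.10. Over all 55 probe sets, 1 was higher and 3, all of *POL2*, were lower in the double mutant at an unadjusted p under 0.05, beside 11.1% of all probe sets, and the smallest adjusted p was 0.182 (limma), for *POL2*. The genes on either side of the 10 in the RefSeq annotation, 20 in all and each measured, gave 0 calls in any comparison.

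**Figure D3:**
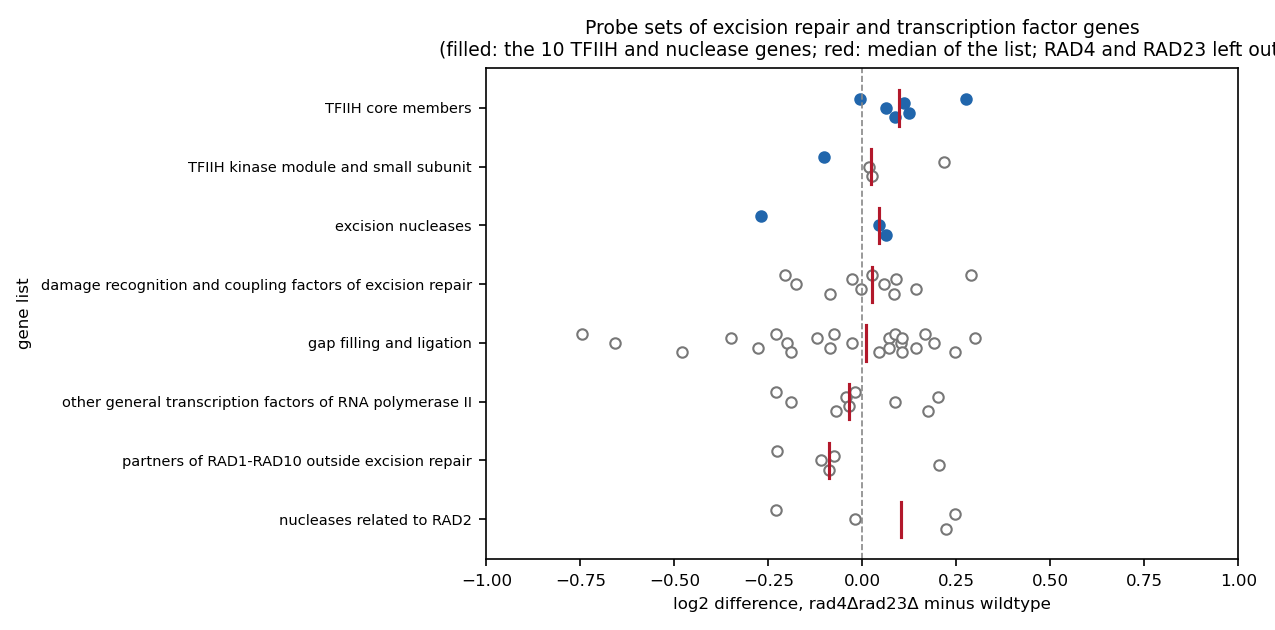
Log2 difference between the double mutant and wildtype (x axis) for each probe set of 8 gene lists (y axis), with *RAD4* and *RAD23* left out; filled points are the 10 TFIIH and nuclease genes and red bars are list medians. The 10 genes lie between -0.27 and 0.28, and the points at -0.28 and below in the gap filling list are probe sets of *POL2*.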

How the data were processed

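Total RNA was hybridised to Affymetrix yeast S98 arrays, 3 per strain. The deposited values are log2 values that the authors made with RMA (affy 1.5.8, Bioconductor 1.5, R 2.0.1, after Microarray Suite 5.0), which corrects background, normalizes between arrays and summarises each probe set. Since RMA equalises arrays, a change shared by most transcripts would not be seen. Array medians were 5.83 to 5.9, and no filter or scaling was added. Of 9335 probe sets, 60 controls were left out.

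A mean per strain was fitted to the 9275 others on all 12 arrays (limma 3.58.1, R 4.3.3, 8 residual degrees of freedom), with moderated tests, Benjamini-Hochberg adjustment over all of them and a threshold of 0.05. The method was tested on simulated data. Differences with errors are given for the 3 genes with the smallest p in each comparison, for any called and, as ranges, for the others. The number of arrays limits the precision. An exact test of 3 arrays against 3 cannot go below p = 0.1. Alternatives covered scaling, dim probe sets, the strains fitted, variance model, array weights, thresholds, probe sets of a gene, a replicate block and left-out arrays. The genes, lists and alternatives were chosen with earlier results of these data known. Weights estimated gene by gene were added after the values were seen. Promoters were not searched here.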

Additional observations from a re-analysis of the deposited data

How the results depend on the processing

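The count of the 10 genes called was 0 in each of the 7 comparisons, and also in 157 of 159 recounts that used neither an unadjusted threshold nor weights estimated from all probe sets. The other 2 used weights estimated gene by gene, with 1 call in the double mutant (*RAD10*) and 1 in *rad23Δ* (*TFB4*) against wildtype. Of all probe sets, 8.92% and 9.08% were called there. An unadjusted p under 0.05 gave 2 genes in the double mutant, 1 in *rad23Δ* and 1 in *rad4Δ* against wildtype, and 1 for the interaction. The shares of all probe sets were 11.1%, 7.15%, 4.16% and 8.92%. Weights estimated from all probe sets gave 4 (*TFB1*, *TFB2*, *TFB3*, *RAD10*), 3 (*TFB4*, *TFB3*, *RAD10*) and 2 (*TFB1*, *RAD10*) in the same order, and 1 for the interaction (*TFB4*). With these weights 25.4%, 25.4%, 6.89% and 11% of all probe sets were called. Their estimate stopped before its tolerance and gave wildtype replicate 1 a weight of 11.5, beside 0.232 to 2.36 for the other 11 arrays, and the cause was not tested. Estimated gene by gene, the weight of wildtype replicate 1 was again the highest, at 3.27, beside 0.277 to 2.69 for the other 11. Leaving out single arrays, the count was 0 in every comparison. None of the 21 differences named in the comparisons turned in sign, but 14 of them moved by over 1.5 times when 1 array was left out. The replicate numbers were not taken to pair the arrays, and whether they do was not settled. Deviations of same-numbered arrays had an r from -0.366 to 0.609 over 18 pairs, with 10 over 0.1. Of the 12 arrays, 7 were most like an array of their own number. With the replicate block the count was 0 in all 7 comparisons, and the adjusted p of *RAD10* in the double mutant was 0.319 (limma). Fitting only the strains of a comparison was not possible for those that use all 4. Standard errors for a pair of strains were 0.0894 to 0.14.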

Other observations

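The mean profile of the 10 genes over the 12 arrays, each gene centred on its own mean, was lowest on *rad23Δ* replicate 1 (-0.124) and highest on *rad4Δ* replicate 3 (0.097). It ran from -0.124 to 0.036 within *rad23Δ* and from 0.001 to 0.026 within the double mutant. The probe sets whose values over the 12 arrays were most like it, of 6494 searched, were those of *COG2* (Pearson r = 0.946), *NUM1* (0.919) and *PST1* (0.909), given as a description. Among the genes next to the 10 in the annotation, and singled out after the values were seen, *RNY1* beside *TFB2* was 0.41 higher in the double mutant than in wildtype, with 0.39 against *rad23Δ* and 0.40 against *rad4Δ* (adjusted p = 0.121, 0.112 and 0.112, limma). *SEC8* beside *TFB4* was 0.35, 0.27 and 0.37 above wildtype in the double mutant, *rad23Δ* and *rad4Δ* (adjusted p = 0.473, 0.749 and 0.906, limma).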
